A study of Rattus norvegicus with 145 samples.

Results

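Liver RNA of female Wistar rats that had received acetamide at 1500 mg/kg/day (mkd) for 28 days was compared directly with that of females given 1000 mkd, to measure what the step to the top dose added. The 10 libraries compared, 5 rats at each dose, were all those of female rats at day 29 that carry these doses, of 30 libraries in the day 29 female data set and 145 in the series. All rats were of the Crl:WI strain and 8 to 10 weeks old. They were gavaged daily with acetamide in water, or with water alone in the 0 mkd group, and the left lobe of the liver was taken on day 29 after an overnight fast, a day after the last dose, in a randomized order of animals. Both groups compared were thus treated, and no genetic change or second agent separates them. The other doses of the same females were 0, 300, 500 and 750 mkd. Each library is a separate rat, and poly(A) RNA was sequenced from a strand-marking kit.

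Acetamide is a small amide present in foods and is known to cause liver tumors in rats given high doses for long periods. Hepatocytes of an adult rat rarely divide, but can re-enter the cell cycle after loss of tissue or in response to mitogens. A dividing cell first loads and copies its DNA with licensing factors and replicative polymerases, and then separates the copies with a spindle built by mitotic kinases, kinesins and kinetochore proteins, whose mRNAs are made mostly in late S and G2 phase. Whole liver tissue was measured, so that fewer cells of a type and less RNA per cell cannot be told apart.

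The 5 libraries at 1000 mkd held 24737781 to 28728900 reads counted on genes, and those at 1500 mkd 22718135 to 31112681. The lowest number was that of rat 5 at 1500 mkd. This rat also had the highest share of reads not counted on a gene, 44.7% against at most 41.6% in the other libraries compared. The part of this in the levels of rat 5 was not tested. The TMM scaling factor, which corrects for a few very abundant RNAs, lay between 1.01 and 1.12 at 1000 mkd and between 1.03 and 1.45 at 1500 mkd, where the highest factor was that of rat 2. In that rat the 10 most abundant genes took 18.6% of the reads, against 23.8 to 26.9% in the 5 rats at 1000 mkd. Levels are given as CPM, the counts of a gene scaled to the TMM-adjusted total of its library, and a log2 fold change is always that of 1500 against 1000 mkd unless another pair of doses is named. The median log2 fold change over the genes tested was 0.01.

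Of the 34 gene lists examined, the one with the largest share of members that differed between the doses was that of cell division, whose genes were higher at 1500 mkd in 4 of the 5 rats. DNA replication genes came next, and interferon-response genes were high in a minority of the rats. Of 28 liver preneoplasia and progenitor genes 8 were higher at an unadjusted p under 0.05. Of 56 genes of the urea cycle and amino acid breakdown 8 were lower at an unadjusted p under 0.05, and of 18 efflux and uptake transporters 4. None of these genes passed the criteria of a 1.5-fold change and an adjusted p of at most 0.05 in the quasi-likelihood test of edgeR, which called 0 of 11451 genes (0%), with a smallest adjusted p of 0.0659. At an unadjusted p under 0.05, 787 genes (6.87%) were higher and 441 (3.85%) lower at 1500 mkd, 1228 in all. With the other tools, DESeq2 called 35 of 14625 genes (0.239%) and limma voom with sample quality weights called 5. All 5 rats at 1500 mkd lay above all 5 at 1000 mkd for 74 genes (0.646%) and below them for 54 (0.472%). When 1 rat of either group was left out, these counts ranged from 79 to 363 and from 61 to 183, both highest without rat 5 at 1500 mkd. Separation of 4 rats from 5 is an easier condition to meet, so that some rise is built into leaving out a rat.

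**Figure D1:**
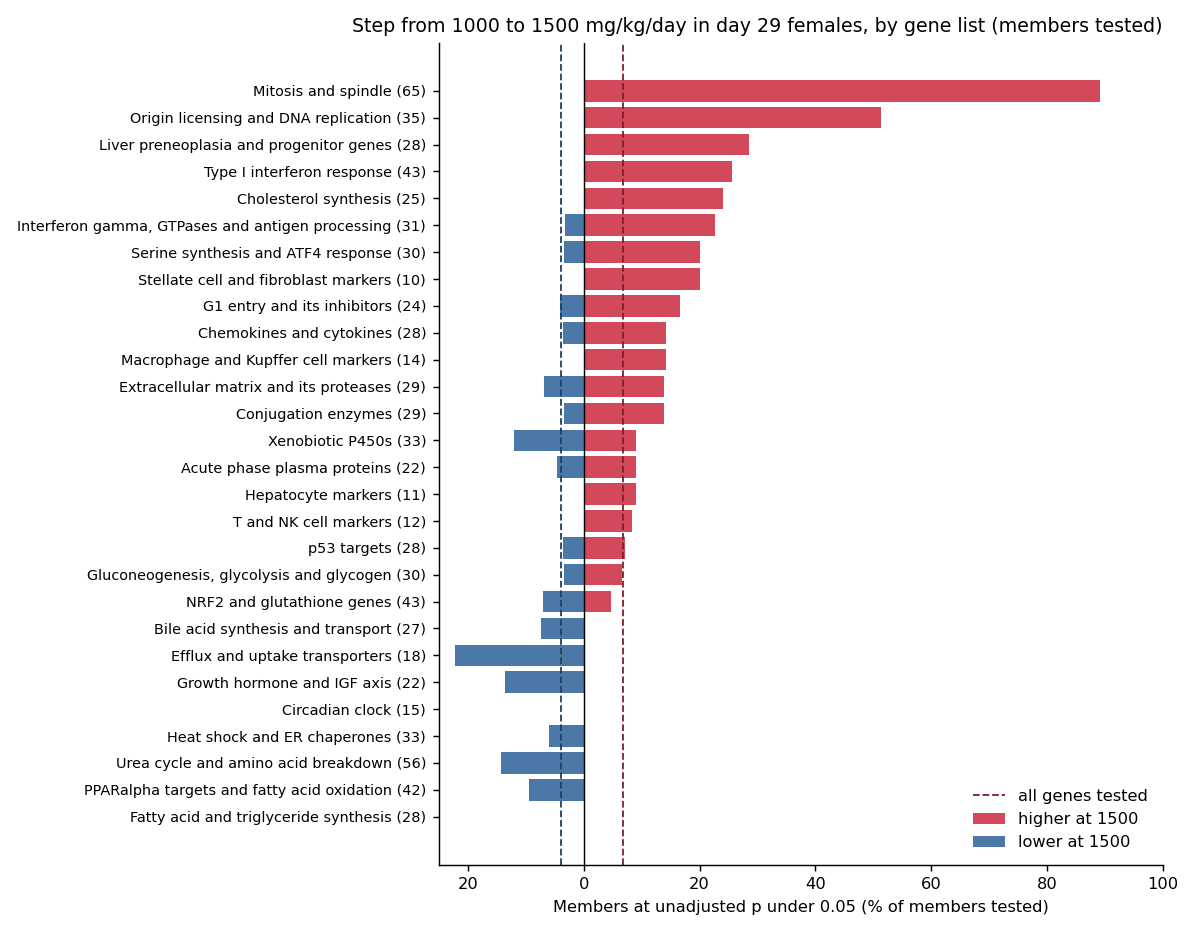
Share of the members of each gene list with an unadjusted edgeR p under 0.05 for 1500 against 1000 mkd in day 29 females, drawn to the right (red) where higher and to the left (blue) where lower at 1500 mkd, with the number of members tested in parentheses and the shares of all 11451 genes as dashed lines. Only lists with 10 or more tested members are drawn. Mitosis and spindle genes reach 58 of 65 members, and replication genes 18 of 35.

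Each dose was also set against the 0 mkd females. At 1000 mkd edgeR called 182 genes (1.59%) against 0 mkd and at 1500 mkd it called 1498 (13.1%). The first count depended on the tool and ranged from 152 to 461 over the alternatives, the highest with DESeq2, and the second ranged from 1475 to 1681. Both comparisons share the control rats. Of 65 mitosis and spindle genes, edgeR called 29 at 1000 mkd and 61 at 1500 mkd, with median log2 fold changes against 0 mkd of 1.54 and 2.58. At an unadjusted p under 0.05, 56 of them were already higher at 1000 mkd and 63 at 1500 mkd. Of all 11451 genes tested, 1188 were higher at 1000 mkd and 2026 at 1500 mkd at that threshold. Of 35 licensing and replication genes, 4 were called at 1000 mkd and 28 at 1500 mkd, while 16 and 31 were higher at an unadjusted p under 0.05. Among the type I interferon genes, 2 of 43 were called at 1000 mkd and 17 at 1500 mkd.

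Mitosis and spindle genes made the step almost as a group. Of the 65 members tested, 58 were higher at 1500 mkd at an unadjusted p under 0.05 and 0 lower, with a median log2 fold change of 0.99. The mean log2 CPM over these genes was 1.13, 1.41, 1.23, 1.69 and 1.17 in the 5 rats at 1000 mkd, and 2.30, 2.43, 2.54, 2.54 and 0.99 in rats 1 to 5 at 1500 mkd. Rats 1 to 4 at 1500 mkd lay above every rat at 1000 mkd, and rat 5 lay below all of them. The groups therefore overlapped through this rat alone. In 4 of the 65 genes all 5 rats at 1500 mkd were above all 5 at 1000 mkd, against 74 of all 11451 genes (0.646%). Among the 4 was Ska1 of the spindle and kinetochore complex, at 0.850, 1.09, 0.854, 0.977 and 0.479 CPM at 1000 mkd and 1.36, 2.06, 2.54, 1.75 and 1.28 CPM at 1500 mkd. The count of members higher at an unadjusted p under 0.05 stayed between 43 and 61 when each of the 10 rats was left out in turn, and 8 members were called by edgeR when rat 5 at 1500 mkd was left out, a fit that called 93 of 11515 genes (0.808%).

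Mki67 encodes Ki-67, the nuclear protein used in pathology to label cycling cells. Its level was 12.4, 17.4, 13.0, 20.9 and 12.9 CPM at 1000 mkd and 33.8, 31.3, 37.6, 34.8 and 10.1 CPM at 1500 mkd, with a log2 fold change of 0.95 ± 0.33 (SE). Against 0 mkd, where the 5 rats held 4.28, 4.46, 5.20, 4.24 and 6.08 CPM, it rose at both doses, by 1.66 and by 2.61 on the log2 scale (edgeR adjusted p = 0.0192 and 5.26e-05). Cdk1, the kinase that drives entry into mitosis, was at 3.29, 5.04, 4.07, 6.13 and 3.39 CPM at 1000 mkd and 10.6, 11.4, 12.4, 12.5 and 3.15 CPM at 1500 mkd. Top2a, the topoisomerase that untangles sister chromatids, was at 6.43, 5.53, 4.00, 10.4 and 7.19 CPM and 16.5, 21.3, 21.6, 21.2 and 4.17 CPM, in the same order. For all 3 genes, rats 1 to 4 at 1500 mkd exceeded every rat at 1000 mkd and rat 5 did not.

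The 4 members of the list with the smallest p were Kif18b, Espl1, Dlgap5 and Kif23. Kif18b, a kinesin that shortens microtubules at the spindle ends, was at 1.77, 1.83, 1.24, 2.29 and 1.73 CPM at 1000 mkd and 5.41, 5.30, 5.91, 5.39 and 1.92 CPM at 1500 mkd (log2 fold change 1.43 ± 0.36 SE, edgeR adjusted p = 0.15, higher than every 1000 mkd rat in 4 of 5 rats). This was the only member of the list that both DESeq2 (adjusted p = 0.0296) and limma voom (adjusted p = 0.0396) called. Espl1, the separase that cuts cohesin at anaphase, was at 1.03, 1.83, 1.86, 1.75 and 1.15 CPM and 3.41, 4.46, 4.90, 3.44 and 1.53 CPM at the 2 doses, with a log2 fold change of 1.22 ± 0.34 (SE). Dlgap5 and Kif23, which serve spindle assembly and the midbody, had log2 fold changes of 1.12 ± 0.34 and 1.38 ± 0.42 (SE). Plk1 and Ccnb1, the polo kinase and cyclin B, had values of 1.09 ± 0.37 and 1.24 ± 0.42 (SE).

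**Figure D2:**
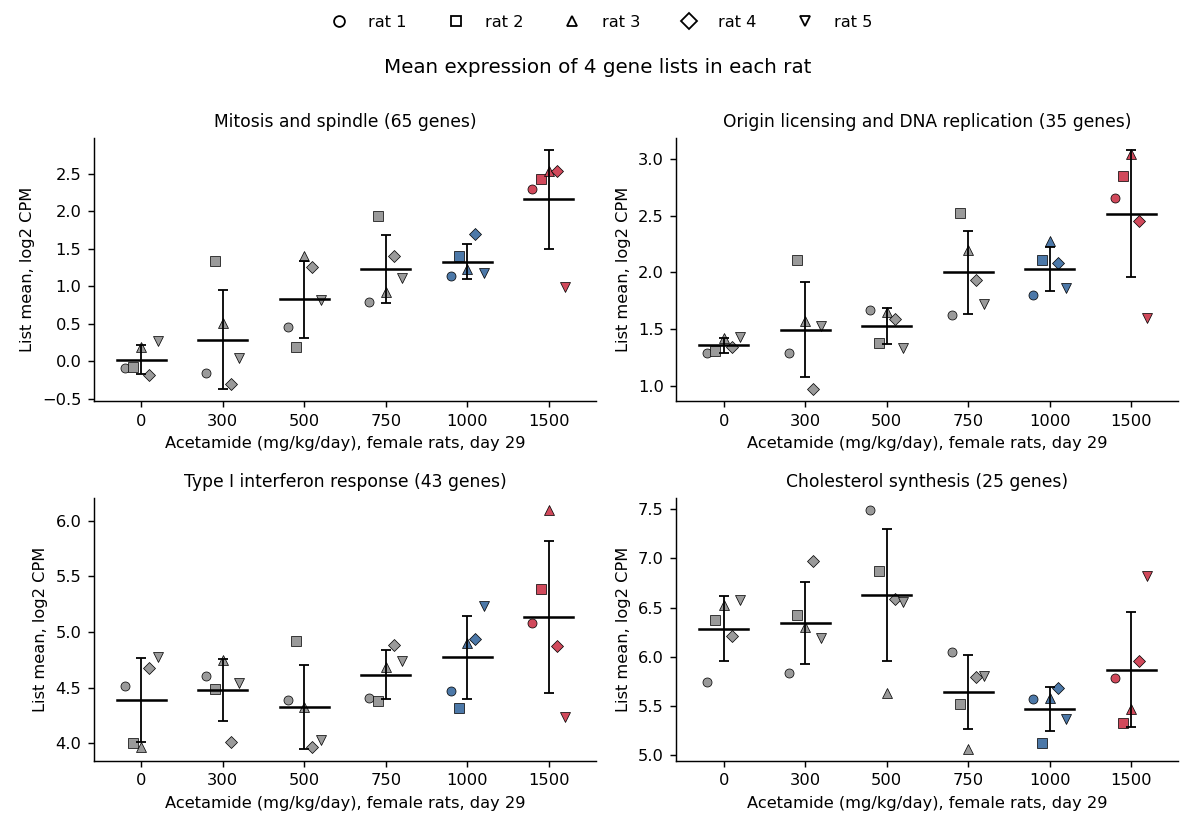
Mean log2 CPM of 4 gene lists in each day 29 female by dose in mkd, with a marker shape for each rat number, bars at the group mean and whiskers of 1 SD over 5 rats (1000 mkd blue, 1500 mkd red, other doses grey). Rat 5 at 1500 mkd lies lowest of its group in mitosis and spindle (0.99) and highest in cholesterol synthesis (6.82).

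Since most members of the list were higher together, their promoters were read from RefSeq (GRCr8 build, from 250 bases before to 50 bases after each gene start, on the strand of the gene). Letters associated with late cell-cycle promoters are the CHR element TTTGAA and the CCAAT box. Searched on both strands, TTTGAA stood in 37 of the 55 mitosis and spindle genes that have an entry (67.3%) and in 18.3% of all 33469 promoters, and CCAAT in 41 of 55 (74.5%) against 37.5%. Here and for the other letters below, a list gene counted if any of its entries matched. All promoters were instead counted entry by entry and were not limited to the genes tested, so the shares are not strictly alike. The letters do not overlap each other in the promoters printed here. The windows of Espl1 (chr7:135302466-135302765, plus strand) and Kif23 (chr8:71320535-71320834, minus strand) are shown as examples that hold both, TTTGAA and CCAAT or their reverse complements being in capitals.
Espl1: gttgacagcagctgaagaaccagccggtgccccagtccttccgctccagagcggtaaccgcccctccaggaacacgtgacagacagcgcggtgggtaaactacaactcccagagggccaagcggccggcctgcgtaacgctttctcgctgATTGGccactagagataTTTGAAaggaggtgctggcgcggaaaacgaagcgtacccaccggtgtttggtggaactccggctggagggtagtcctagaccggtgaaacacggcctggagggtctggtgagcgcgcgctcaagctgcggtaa
Kif23: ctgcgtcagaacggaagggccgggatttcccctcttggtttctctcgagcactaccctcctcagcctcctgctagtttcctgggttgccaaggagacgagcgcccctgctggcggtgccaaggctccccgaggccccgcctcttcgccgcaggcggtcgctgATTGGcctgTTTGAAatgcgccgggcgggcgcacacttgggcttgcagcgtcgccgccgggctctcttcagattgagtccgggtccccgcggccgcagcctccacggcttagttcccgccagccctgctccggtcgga
In Espl1 TTTGAA begins 83 bases and CCAAT 100 bases before the start, and in Kif23 they begin 79 and 88 bases before it. The Kif18b window holds neither set of letters. A match describes the sequence only.

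Genes of origin licensing and DNA replication were also higher. Of 35 tested, 18 were higher at an unadjusted p under 0.05 and 0 lower, with a median log2 fold change of 0.52. Their mean log2 CPM was 1.80, 2.11, 2.28, 2.09 and 1.86 at 1000 mkd and 2.66, 2.85, 3.05, 2.45 and 1.59 at 1500 mkd, so that rats 1 to 4 lay above and rat 5 below every rat at 1000 mkd. The count fell to 11 without rat 2 and to 10 without rat 3 of the 1500 mkd group or rat 1 of the 1000 mkd group, and was 27 without rat 5 at 1500 mkd. Tyms, the thymidylate synthase that supplies dTMP, was at 4.73, 4.43, 3.69, 4.99 and 4.99 CPM at 1000 mkd and 8.90, 13.9, 14.3, 8.09 and 4.13 CPM at 1500 mkd, with a log2 fold change of 1.11 ± 0.26 (SE). It was above every rat at 1000 mkd in 4 of 5 rats (edgeR adjusted p = 0.13, DESeq2 adjusted p = 0.0181).

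Rrm1 and Rrm2, the subunits of ribonucleotide reductase, had log2 fold changes of 0.50 ± 0.15 and 1.71 ± 0.59 (SE). Prim1, the primase subunit, was at 12.3, 19.2, 20.7, 16.5 and 15.0 CPM at 1000 mkd and 19.3, 21.6, 31.7, 28.3 and 24.8 CPM at 1500 mkd, and was unlike most of the list in that rat 5 did not stand lowest. Pcna, the sliding clamp, was at 20.3, 18.9, 24.9, 23.9 and 22.6 CPM and 30.9, 34.4, 37.4, 27.6 and 19.8 CPM, with rat 5 within the 1000 mkd range. Mcm2 of the replicative helicase had a log2 fold change of 0.51 ± 0.28 (SE) and an unadjusted edgeR p of 0.0753.

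E2F-type letters TTTGGCGC were present in 8 of the 29 replication genes with a RefSeq promoter (27.6%) and in 0.493% of all 33469 promoters. That of Tyms (GRCr8, chr9:120776034-120776333, minus strand) is shown because Tyms had the smallest p of the list, with the letters in capitals, beginning 37 bases before the start.
Tyms: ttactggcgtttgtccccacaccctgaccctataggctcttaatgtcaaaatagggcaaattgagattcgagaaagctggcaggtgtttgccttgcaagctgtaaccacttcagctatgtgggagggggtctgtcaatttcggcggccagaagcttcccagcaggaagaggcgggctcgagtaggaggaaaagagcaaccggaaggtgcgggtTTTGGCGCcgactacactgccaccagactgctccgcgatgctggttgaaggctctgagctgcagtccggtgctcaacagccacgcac

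Of 24 genes of G1 entry and its inhibitors, 4 were higher and 1 lower at an unadjusted p under 0.05 (median log2 fold change 0.15). Cyclin D1 (Ccnd1) was at 196, 123, 195, 178 and 161 CPM at 1000 mkd and 169.7, 253, 212, 208 and 149.6 CPM at 1500 mkd, and the groups overlapped. E2f7, a repressor made in S phase, had the smallest p of this list, with a log2 fold change of 1.30 ± 0.38 (SE) at levels under 1.3 CPM in every rat of both groups. Of 28 p53 targets 2 were higher and 1 lower. Cdkn1a, the p21 inhibitor of cyclin kinases, was at 43.8, 43.5, 37.7, 64.7 and 63.9 CPM at 1000 mkd and 104, 134, 103, 66.3 and 42.6 CPM at 1500 mkd, with rats 1 to 4 above and rat 5 below the highest 1000 mkd rat (log2 fold change 0.83 ± 0.51 SE).

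At the relaxed criteria of a 1.4-fold change and an adjusted p of at most 0.1, 10 of 11451 genes passed (0.0873%), 8 higher and 2 lower at 1500 mkd. They are named here after their values were seen. Itga6, the integrin subunit of laminin receptors, had the smallest p (edgeR adjusted p = 0.0659, log2 fold change 1.4 ± 0.25 SE). Its level was 4.80, 5.17, 4.07, 6.50 and 4.76 CPM at 1000 mkd and 10.1, 21.9, 10.1, 15.1 and 9.53 CPM at 1500 mkd, so that all 5 rats were higher with no overlap. Pax9, a transcription factor of the paired-box family, was lower, at 0.628, 1.03, 0.349, 0.606 and 0.831 CPM against 0.145, 0.160, 0.231, 0.169 and 0.426 CPM, from 5 to 10 reads per rat at 1500 mkd (log2 fold change -1.65 ± 0.31 SE, edgeR adjusted p = 0.0659, below every 1000 mkd rat in 4 of 5 rats). Slc25a21, the mitochondrial oxodicarboxylate carrier, was lower in all 5 rats, at 4.17, 2.96, 1.55, 1.58 and 2.21 CPM against 0.752, 0.983, 0.95, 1.01 and 1.53 CPM. Against 0 mkd, Itga6, Pax9 and Slc25a21 were not called at 1000 mkd (edgeR adjusted p = 0.614, 0.545 and 0.926) and were called at 1500 mkd, with log2 fold changes of 1.65, -1.31 and -1.21. These genes were picked by the step between the same treated rats, so the comparison with 0 mkd is a description and no separate support.

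The other 7 genes had their highest levels in rats 2 and 3 at 1500 mkd, except that Adgrg2 was highest in rats 2 and 4. Ppl, the desmosome-associated periplakin, was at 3.44, 6.81, 7.68, 6.00 and 4.06 CPM at 1000 mkd and 9.14, 52.3, 40.1, 12.6 and 8.47 CPM at 1500 mkd, without overlap. Gucy2c, the intestinal guanylate cyclase receptor, was at 0.148, 0.482, 0.543, 0.404 and 0.128 CPM and 0.491, 6.63, 4.06, 0.775 and 1.36 CPM, with 4 of 5 rats above the 1000 mkd range. Gbp4, an interferon-induced GTPase, was at 2.18, 1.61, 1.78, 2.80 and 3.83 CPM and 4.19, 33.8, 51.5, 3.20 and 1.79 CPM, and in rats 4 and 5 it lay within the 1000 mkd range. Rats 2 and 3 were thus the high ones for each of these 3 genes. Lgals5, a galectin, was at 0.259, 0.482, 0.427, 0.303 and 0.288 CPM and 0.289, 13.8, 6.01, 0.438 and 0.383 CPM, with only rats 2 and 3 above that range. Adgrg2, an adhesion receptor, was at 0.111, 0.0964, 0.233, 0.438 and 0.256 CPM and 0.491, 5.14, 0.924, 3.27 and 0.170 CPM. B3galnt1, a glycosyltransferase, and LOC681325 had log2 fold changes of 2.59 ± 0.55 and 1.88 ± 0.39 (SE). LOC681325 lay above the 1000 mkd range in rat 5 by a narrow margin (1.02 against 0.991 CPM), and not without TMM scaling. Gbp4 and Lgals5 have close relatives in the rat genome, and reads shared with a relative make their counts uncertain.

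**Figure D3:**
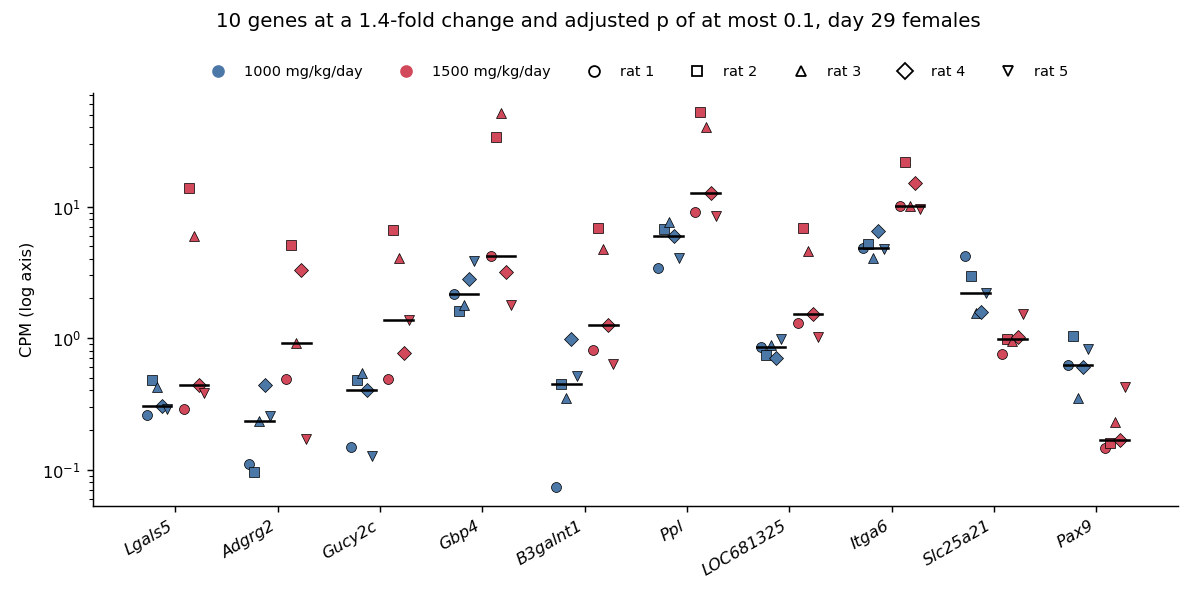
CPM (log axis) of the 10 genes at a 1.4-fold change and an adjusted p of at most 0.1 in each day 29 female at 1000 mkd (blue) and 1500 mkd (red), with a marker shape for each rat number and bars at the group medians. Itga6, Ppl and Slc25a21 show no overlap, nor does LOC681325 on this TMM scale, whereas in Lgals5 only rats 2 and 3 at 1500 mkd (13.8 and 6.01 CPM) lie above the 1000 mkd range.

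DESeq2, the tool of the study, called 29 genes higher and 6 lower, and these 35 include all 10 genes above. Of the 35, 34 were tested in edgeR and all 34 had an unadjusted p under 0.05 there. Both tools used the same counts of the same rats, so this is a description and no separate support. Of the 29 higher genes, 13 were above the 1000 mkd range in rat 5, or 10 on CPM without TMM scaling. Several of the 35 genes showed no overlap between the groups, among them Trim59, which was higher, and Pkp3, which was lower. Trim59, a ubiquitin ligase of the TRIM family, was at 1.33, 1.32, 1.24, 1.65 and 1.05 CPM at 1000 mkd and 2.00, 5.79, 4.34, 4.01 and 2.72 CPM at 1500 mkd. Pkp3, a desmosomal plakophilin, was at 19.9, 16.4, 24.4, 15.8 and 14.9 CPM and 13.5, 8.39, 7.24, 13.6 and 13.3 CPM. limma voom called Itga6, Kif18b, Arsb, Pax9 and Cep55, of which 4 were also called by DESeq2.

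The 5 rats at 1500 mkd contributed unequally to the step. Of the 787 genes that were higher at an unadjusted p under 0.05, the level was above all 5 rats at 1000 mkd for 445 in rat 1, 759 in rat 2, 713 in rat 3, 422 in rat 4 and 259 in rat 5. Of the 441 lower genes, 203, 416, 370, 230 and 187 lay below all 5 rats at 1000 mkd in rats 1 to 5. These sets were chosen with the same rats and are given as a description. On the first principal component of the 30 females (22.8% of the variance, signed so that the 1500 mkd group is above the 0 mkd group), the 1500 mkd rats stood at 34.0, 67.5, 47.9, 18.6 and 0.86 and the 1000 mkd rats between -3.07 and 20.1. The median SD of log2 CPM over genes was 0.308 at 1500 mkd and 0.274 at 1000 mkd, and the SD was wider at 1500 mkd for 59.4% of the genes.

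Leaving out rat 5 at 1500 mkd raised the number of genes called by edgeR from 0 to 93, of which 79 were higher. Leaving out rat 1 gave 9 calls and leaving out rat 4 gave 4. Leaving out rat 2 gave 0 and reduced the genes at an unadjusted p under 0.05 from 1228 to 569, and leaving out rat 3 gave 0 and 849. Without rat 3 at 1000 mkd 1 gene, Pax9, was called, and without each of the other 4 rats at 1000 mkd 0 were.

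**Figure D4:**
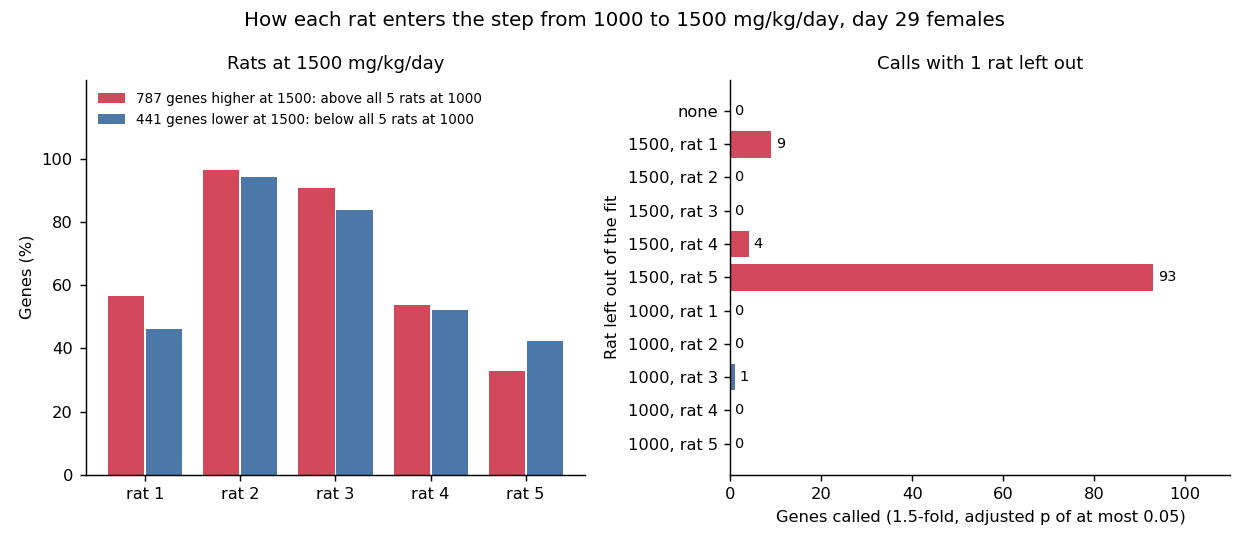
Left, the percentage of the 787 higher and 441 lower genes (unadjusted p under 0.05) for which each of the 5 rats at 1500 mkd lay beyond all 5 rats at 1000 mkd. Right, genes called by edgeR at a 1.5-fold change and an adjusted p of at most 0.05 with no rat or 1 rat left out, from 0 with all rats to 93 without rat 5 at 1500 mkd.

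Interferon signalling induces a set of antiviral genes through the STAT and IRF factors. Of 43 type I interferon genes tested, 11 were higher at an unadjusted p under 0.05 and 0 lower, with a median log2 fold change of 0.32. The list mean was 4.47, 4.32, 4.90, 4.94 and 5.24 log2 CPM at 1000 mkd and 5.08, 5.39, 6.10, 4.88 and 4.24 at 1500 mkd, where rats 2 and 3 were above the 1000 mkd range and rat 5 was below it. The count was 3 without rat 3, 18 without rat 5 at 1500 mkd, 7 without rat 1 at 1000 mkd, 7 with limma voom and 5 when only the 10 rats of both groups were fitted. Irf7, the factor that amplifies the response, was at 47.1, 48.6, 97.5, 95.5 and 119 CPM at 1000 mkd and 95.7, 478, 702, 89.3 and 37.6 CPM at 1500 mkd (log2 fold change 1.78 ± 0.54 SE). Lgals3bp, a secreted scavenger-receptor protein, was at 76.2, 75.2, 90.8, 113 and 103 CPM and 193, 428, 496, 113 and 49.9 CPM, and DESeq2 called it (adjusted p = 0.0181, log2 fold change 1.47, higher than every 1000 mkd rat in 4 of 5 rats, of which rat 4 was above by less than 1 CPM). Ifit1, an antiviral effector, was at 0 to 5 reads in the rats at 1000 mkd, and at 1500 mkd it reached 22.6 and 85.8 CPM in rats 2 and 3 and under 0.09 CPM in rats 1, 4 and 5.

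Of 31 genes of interferon gamma signalling, GTPases and antigen processing, 7 were higher and 1 lower (median log2 fold change 0.17). Gbp2, a guanylate-binding protein, was at 19.8, 14.1, 19.2, 25.6 and 37.1 CPM at 1000 mkd and 36.2, 99.7, 80.3, 30.4 and 13.7 CPM at 1500 mkd. Psmb9, a subunit of the immunoproteasome, was at 48.9, 63.6, 45.4, 57.1 and 51.1 CPM and 66.8, 82.8, 101, 68.9 and 58.6 CPM, with 4 of 5 rats above the 1000 mkd range. Letters of the interferon response element, GAAANNGAA on either strand, stood in 20 of the 30 type I interferon genes with a RefSeq promoter (66.7%) and in 9.71% of all promoters. Those of Irf7 (GRCr8, chr1:205799974-205800273, minus strand) and Lgals3bp (GRCr8, chr10:104127799-104128098, minus strand) are shown with the letters in capitals, beginning 68 and 50 bases before the start.
Irf7: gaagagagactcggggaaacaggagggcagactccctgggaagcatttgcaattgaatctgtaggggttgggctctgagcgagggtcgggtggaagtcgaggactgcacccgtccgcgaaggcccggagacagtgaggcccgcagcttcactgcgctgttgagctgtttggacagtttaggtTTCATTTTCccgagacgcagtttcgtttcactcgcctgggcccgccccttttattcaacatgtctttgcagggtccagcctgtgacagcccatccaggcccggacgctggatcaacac
Lgals3bp: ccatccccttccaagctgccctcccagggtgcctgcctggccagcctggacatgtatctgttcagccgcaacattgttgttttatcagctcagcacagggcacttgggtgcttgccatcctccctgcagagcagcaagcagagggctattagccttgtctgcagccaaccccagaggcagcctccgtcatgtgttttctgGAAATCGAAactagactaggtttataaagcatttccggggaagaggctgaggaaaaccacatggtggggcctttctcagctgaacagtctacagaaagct

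Cholesterol synthesis was the list in which the second step of 500 mkd, from 1000 to 1500 mkd, departed most by its median from the first, from 500 to 1000 mkd. Both steps share the rats at 1000 mkd. Of 25 tested genes, 6 were higher at 1500 than at 1000 mkd at an unadjusted p under 0.05 and 0 lower (median log2 fold change 0.49), and the difference between the 2 steps was positive at an unadjusted p under 0.05 for 18 of 25 (median 1.81), against 1.82% of all genes. The difference between steps called 0 genes in edgeR, with 342 at an unadjusted p under 0.05 and a smallest adjusted p of 0.748, and DESeq2 called 5. The list mean was 7.5, 6.87, 5.63, 6.59 and 6.56 log2 CPM at 500 mkd, 5.58, 5.13, 5.58, 5.68 and 5.37 at 1000 mkd and 5.78, 5.33, 5.47, 5.95 and 6.82 at 1500 mkd. Against 0 mkd, the median log2 fold change of the list was -0.83 at 1000 mkd and -0.27 at 1500 mkd, each with 1 gene called. The letters TCACNCCAC, also searched on both strands, stood in 0 of the 17 cholesterol synthesis genes with a RefSeq promoter and in 1.12% of all 33469 promoters.

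Sqle, the squalene epoxidase, was at 29.2, 12.9, 40.3, 33.1 and 17.5 CPM at 1000 mkd and 39.9, 35.1, 37.9, 45.5 and 177 CPM at 1500 mkd (log2 fold change 1.33 ± 0.46 SE), where rat 5 was the high one, and the log2 fold change was 0.57 without it. Idi1, the isopentenyl diphosphate isomerase, was at 24.9, 16.0, 25.1, 23.7 and 15.0 CPM and 27.2, 25.1, 18.3, 38.1 and 153 CPM, again with rat 5 highest. Without rat 5 at 1500 mkd the count of cholesterol genes that were higher fell from 6 to 1, without rat 2 it was 12, and with limma voom it was 1. Tmem97, a regulator of sterol transport, was at 33.7, 43.2, 45.8, 38.4 and 31.8 CPM at 1000 mkd and 50.7, 71.3, 56.5, 56.2 and 90.3 CPM at 1500 mkd without overlap, and had the smallest p of all genes for the difference between steps, which was 1.67 ± 0.36 (SE) on the log2 scale. Acat2, a cytosolic thiolase at the start of the pathway, followed with a difference of 2.50 ± 0.57 (SE). In 28 genes of fatty acid and triglyceride synthesis, 0 were higher and 0 lower at an unadjusted p under 0.05.

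Of 28 chemokines and cytokines 4 were higher and 1 lower, and of 22 acute phase plasma proteins 2 and 1. Orm1, the acid glycoprotein of the acute phase, was at 331, 235, 402, 319 and 193 CPM at 1000 mkd and 327, 1201, 700, 309.7 and 674 CPM at 1500 mkd, above the 1000 mkd range in rats 2, 3 and 5. Tnfsf13, a ligand of B cells, was at 6.28, 104, 6.13, 6.17 and 6.84 CPM and 7.83, 9.03, 6.01, 8.32 and 6.26 CPM, and its log2 fold change of -1.79 became 0.24 when rat 2 at 1000 mkd was left out.

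The liver turns amino acid nitrogen into urea. Of 56 genes of the urea cycle and amino acid breakdown, 0 were higher and 8 lower at an unadjusted p under 0.05, with a median log2 fold change of -0.15. The count was 3 without rat 2 and 14 without rat 5 at 1500 mkd, 4 without rat 2 at 1000 mkd, and 4 when only the 10 rats of both groups were fitted. Oat, the ornithine aminotransferase, was at 655, 318, 231, 229 and 348 CPM at 1000 mkd and 133, 88.6, 185, 147 and 287 CPM at 1500 mkd, where rats 1 to 4 were below the 1000 mkd range (log2 fold change -1.08 ± 0.32 SE). Ass1 and Asl, which make and split argininosuccinate, had log2 fold changes of -0.53 ± 0.16 and -0.59 ± 0.20 (SE). Asl was at 1634, 1978, 1219, 1422 and 1601 CPM and 1094, 1108, 1425, 652 and 944 CPM, and at 0 mkd it was at 991, 1025, 1376, 1312 and 1137 CPM. Hpd, of tyrosine breakdown, had a value of -0.54 ± 0.22 (SE).

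Of 30 genes of serine synthesis and the ATF4 response, 6 were higher and 1 lower at an unadjusted p under 0.05 (median log2 fold change -0.03). Phgdh, the first enzyme of serine synthesis, was at 0.369, 0.675, 0.621, 0.640 and 0.415 CPM at 1000 mkd and 1.88, 0.983, 0.924, 1.11 and 0.936 CPM at 1500 mkd, without overlap. Vldlr, a lipoprotein receptor gene that ATF4 can induce, was at 0.591, 0.867, 0.737, 0.573 and 0.511 CPM and 1.1, 2.08, 0.976, 1.45 and 1.06 CPM, also without overlap. Slc7a1, the cationic amino acid transporter, was at 0.961, 0.932, 0.815, 1.38 and 0.959 CPM and 1.45, 3.71, 4.13, 1.89 and 0.681 CPM, with rat 5 below the 1000 mkd range. Psat1, the next enzyme after Phgdh, had a log2 fold change of 0.71 ± 0.26 (SE).

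P450 and conjugating enzymes of the liver handle many foreign compounds. Of 33 P450 genes, 3 were higher and 4 lower at an unadjusted p under 0.05. Cyp2e1, the P450 of small solvents and ethanol, was at 6264, 5495, 6776, 4416 and 4958 CPM at 1000 mkd and 4822, 1751, 2105, 4991 and 3135 CPM at 1500 mkd, lowest in rats 2 and 3 (log2 fold change -0.73 ± 0.23 SE). Cyp2c23 was lower in all 5 rats, at 1948, 1722, 1830, 1608 and 1785 CPM against 1582, 724, 1066, 1567 and 965 CPM, and Cyp2c22 had a log2 fold change of 0.95 ± 0.26 (SE). The Cyp2c genes are close relatives, so that their counts may share reads. Among 29 conjugation enzymes, 4 were higher and 1 lower. Sult1c2a, a sulfotransferase with a near copy in the rat, was lower in all 5 rats, at 36.2, 33.7, 57.9, 33.4 and 45.6 CPM against 25.1, 6.86, 22.5, 27.8 and 10.7 CPM, and DESeq2 called it (adjusted p = 0.0311, log2 fold change -1.16). Sult1b1 had a log2 fold change of 0.77 ± 0.26 (SE).

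Of 18 efflux and uptake transporters, 0 were higher and 4 lower, of 27 bile acid genes 0 and 2, and of 22 genes of the growth hormone and IGF axis 0 and 3. Slco2b1, an organic anion uptake carrier, was at 295, 258, 243, 222 and 279.9 CPM at 1000 mkd and 178, 114, 189.9, 223 and 216 CPM at 1500 mkd, overlapping in rat 4 alone. Cyp8b1, which makes the cholic acid branch of bile acids, was at 1914, 1457, 1820, 1716 and 1962 CPM and 1063, 762, 1323, 1184 and 1571 CPM. Igf1 and its carrier Igfals had log2 fold changes of -0.35 ± 0.16 and -0.52 ± 0.20 (SE), lowest in rats 2 and 3. Of 42 PPARα and fatty acid oxidation genes 0 were higher and 4 lower, and of 15 clock genes 0 and 0. Among 43 NRF2 and glutathione genes 2 were higher and 3 lower, with log2 fold changes of -0.26 ± 0.35 (SE) for the quinone reductase Nqo1 and -0.16 ± 0.20 (SE) for the transferase Gstp1. Among 30 genes of glucose metabolism 2 were higher and 1 lower, among 33 heat shock and ER chaperones 0 and 2, and among 29 matrix genes and their proteases 4 and 2.

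Of 28 genes associated with liver preneoplasia and progenitor states, 8 were higher at an unadjusted p under 0.05 and 0 lower, with a median log2 fold change of 0.42. H19, an imprinted fetal RNA, was at 0.850, 1.06, 1.48, 1.38 and 0.575 CPM at 1000 mkd and 3.82, 19.4, 2.46, 7.68 and 0.808 CPM at 1500 mkd, with rats 1 to 4 above the 1000 mkd range (log2 fold change 2.68 ± 0.69 SE, edgeR adjusted p = 0.16). S100a10 and its partner Anxa2 had log2 fold changes of 0.68 ± 0.29 and 0.62 ± 0.23 (SE), highest in rat 2. Tes, a focal adhesion gene, was at 2.48, 4.11, 3.88, 6.64 and 6.01 CPM at 1000 mkd and 5.26, 16.8, 10.8, 5.05 and 3.02 CPM at 1500 mkd. The aldo-keto reductase Akr1b8 was at 0.554, 0.610, 2.17, 0.539 and 0.543 CPM and 1.56, 3.02, 0.847, 2.86 and 1.06 CPM, overlapping through rat 3 at 1000 mkd. Acot1, an acyl-CoA thioesterase with close relatives beside it in the genome, was at 6.61, 3.47, 18.9, 30.4 and 18.3 CPM and 7.17, 198, 30.2, 40.5 and 33.4 CPM, and the groups overlapped. Cyp17a1, a steroid hydroxylase, was at 70.5, 50.3, 76.8, 105 and 65.2 CPM and 73.7, 316, 261, 64.6 and 41.8 CPM, above the 1000 mkd range in rats 2 and 3 alone. Hebp2, a heme-binding protein, was at 1.74, 0.803, 2.29, 2.16 and 1.98 CPM and 2.86, 5.37, 6.68, 4.85 and 2.77 CPM without overlap.

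Markers of hepatocytes were present in every library, Alb being at 147700, 122400, 113600, 125600 and 107400 CPM at 1000 mkd and 124300, 46920, 103500, 112100 and 128700 CPM at 1500 mkd, lowest in rat 2. The summed level of 11 hepatocyte markers ranged from 174530 to 221890 CPM at 1000 mkd and from 103100 to 209650 CPM at 1500 mkd, and 1 marker was higher and 0 lower at an unadjusted p under 0.05. Of 14 macrophage and Kupffer cell markers 2 were higher and 0 lower, with summed levels of 1297 to 2744 CPM and 1364 to 2691 CPM. Of 12 T and NK cell markers 1 was higher and 0 lower (48.9 to 105 CPM against 54.0 to 93.9 CPM), of 8 endothelial markers 2 and 0 (186 to 305 CPM against 234 to 364 CPM), and of 10 stellate cell and fibroblast markers 2 and 0 (369 to 643 CPM against 337 to 579 CPM). Of 7 cholangiocyte markers 0 were higher or lower (288 to 383 CPM against 307 to 384 CPM), as was so for 7 erythroid markers. Neutrophil markers summed to 1.32 to 3.56 CPM and 1.36 to 7.56 CPM, highest in rat 2, and B and plasma cell markers to at most 2.53 CPM. Of 4 neutrophil markers tested 1 was higher, and of 3 B and plasma cell markers 0. Among pancreas, adipose and muscle markers, Amy2a3, Pnlip, Lep and Mb had 0 reads in all 10 rats.

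Some single markers were high in the same rats as the interferon genes. Itgam, an integrin of myeloid cells, was at 1.63, 2.92, 2.33, 1.82 and 4.70 CPM at 1000 mkd and 4.05, 15.1, 6.03, 2.09 and 1.28 CPM at 1500 mkd. Lyz2, the lysozyme of macrophages, was at 12.1, 25.5, 14.2, 22.2 and 23.8 CPM and 28.6, 62.5, 39.6, 20.1 and 23.4 CPM, whereas Clec4f, the defining Kupffer cell lectin, was at 332, 547, 383, 551 and 770 CPM and 534, 427, 501, 412 and 376 CPM with the groups overlapping. Dcn, the proteoglycan of fibroblasts, reached 65.0 CPM in rat 2 at 1500 mkd against at most 12.1 CPM at 1000 mkd. The part of these cells in the differences above was not tested.

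The same dose step was measured in 2 other sets of 10 rats, the first being females killed on day 8 (after 7 daily gavages) and the second the males of the 28-day treatment. In day 8 females edgeR called 0 genes, with 335 at an unadjusted p under 0.05, 201 of them higher at 1500 mkd (1.75%), and DESeq2 and limma voom also called 0. In day 29 males it called 0, with 462 at an unadjusted p under 0.05, of which 372 (3.3%) were higher and 90 (0.798%) lower, while DESeq2 called 1 and limma voom 0. Across 11390 genes the log2 fold changes of the day 29 and day 8 females had a Spearman correlation of 0.14, and across 11185 genes those of day 29 females and males had one of 0.07. Genes are not independent replicates, and these values are a description.

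In day 8 females 0 of 65 mitosis and spindle genes were higher at 1500 mkd, with a median log2 fold change of -0.44. Their list mean was 1.82, 1.1, 1.31, 2.20 and 2.87 log2 CPM at 1000 mkd and 1.11, 1.17, 1.88, 2.38 and 1.03 at 1500 mkd, so that the doses overlapped throughout. The difference of the step between day 29 and day 8 was positive at an unadjusted p under 0.05 for 47 of the 65 genes, against 3.25% of all genes, and was called for 0 genes (edgeR smallest adjusted p 0.997, 528 genes at an unadjusted p under 0.05; 0 with DESeq2 and 0 with limma voom). Without rat 5 of the day 8 females at 1000 mkd the count was 20. In males 62 of 65 were higher (median 1.80), through rat 3 at 1500 mkd, as the list mean was 1.43, 2.14, 1.63, 1.38 and 1.27 log2 CPM at 1000 mkd and 1.5, 1.46, 5.27, 1.67 and 0.22 at 1500 mkd. Without that male, 0 of 65 were higher, and with limma voom 0 were.

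At an unadjusted p under 0.05, 28 of 43 type I interferon genes were higher at 1500 mkd in day 8 females, and 1 was higher and 11 lower in males. Their list mean was 5.19, 5.07, 4.19, 4.73 and 4.87 log2 CPM at 1000 mkd and 4.76, 5.79, 5.81, 7.05 and 4.36 at 1500 mkd in day 8 females, and 4.89, 4.35, 5.27, 4.75 and 4.65 and 4.67, 4.81, 4.39, 4.13 and 3.97 in day 29 males. Without rat 4 of the day 8 females at 1500 mkd the count was 2 of 43. Irf7 at day 8 was at 119, 104, 26.8, 66.0 and 80.4 CPM at 1000 mkd and 62.5, 291, 255, 752 and 37.1 CPM at 1500 mkd. The difference of the step between day 29 females and males was positive at an unadjusted p under 0.05 for 19 of 43 members, against 2.89% of all genes, and fell to 12 without rat 3 of the females at 1500 mkd. It was called for 0 genes in edgeR, with 625 at an unadjusted p under 0.05 and a smallest adjusted p of 0.251, and for 0 with DESeq2 and 0 with limma voom.

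**Figure D5:**
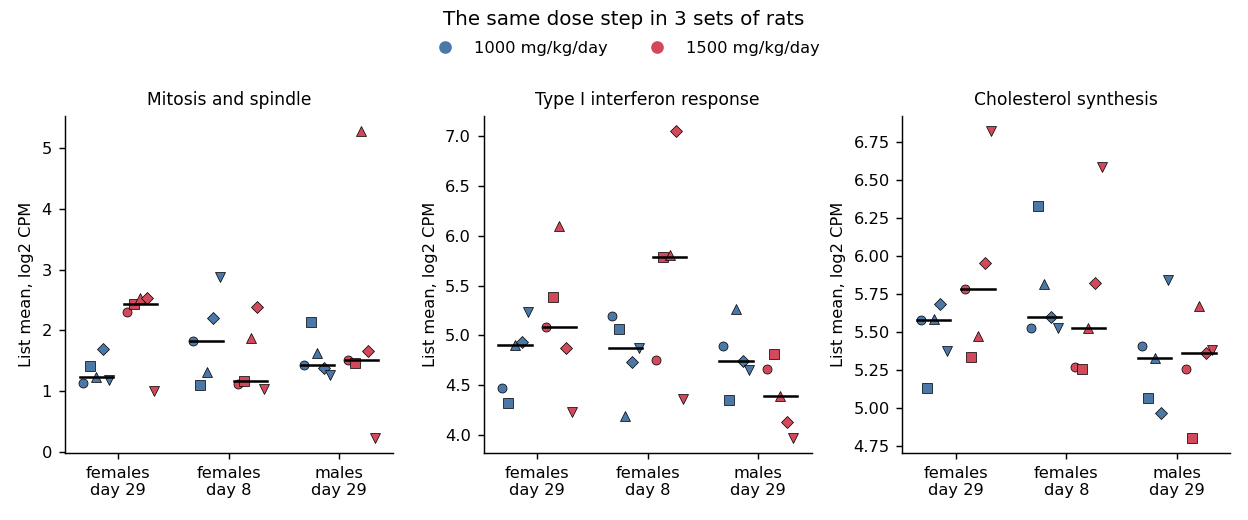
List means (log2 CPM) of mitosis and spindle, type I interferon and cholesterol synthesis genes in each rat at 1000 mkd (blue) and 1500 mkd (red) in day 29 females, day 8 females and day 29 males, with bars at the group medians and a marker shape for each rat number. Male rat 3 at 1500 mkd stands at 5.27 in mitosis and spindle, with the other 4 males at that dose between 0.22 and 1.67.

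The cholesterol list showed 0 members higher in either other set at an unadjusted p under 0.05, with medians of -0.01 in day 8 females and -0.03 in males. Its mean was 5.52, 6.33, 5.82, 5.60 and 5.53 log2 CPM at 1000 mkd and 5.27, 5.26, 5.53, 5.82 and 6.59 at 1500 mkd in day 8 females. H19 was at 1.12, 0.410, 0.251, 2.21 and 0.207 CPM and 0.359, 6.92, 30.3, 32.0 and 0.178 CPM in day 8 females and at 0.462, 0.567, 0.495, 0.474 and 0.668 CPM and 1.05, 0.559, 48.4, 0.550 and 0.902 CPM in males, at 1000 and 1500 mkd respectively. The high values lay in rats 2, 3 and 4 of the day 8 females and in rat 3 of the males at 1500 mkd.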

How the data were processed

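Total liver RNA of 145 rats was profiled by poly(A) RNA sequencing (TruSeq Stranded mRNA). The deposited values are raw read counts per gene, one table for each sex and study length. To make them, the authors trimmed 7 leading and 3 trailing bases, dropped reads under 50 bases, aligned with Bowtie2 to UCSC Rn6 and counted with HTSeq. The summary lines of HTSeq, which name no gene and amounted to 37.3 to 44.7% beside the gene counts in the 10 libraries, were left out, and 0 columns were set aside.

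From the counts of 17337 genes, edgeR (4.0.16, R 4.3.3) was run with its expression filter, TMM scaling and the quasi-likelihood test, with all 6 dose groups of a table in 1 fit and Benjamini-Hochberg adjustment over all genes tested. A gene was called at a 1.5-fold change and an adjusted p of at most 0.05. The SE of a log2 fold change was derived from the test, as its absolute value divided by the square root of the quasi-likelihood F. Differences of the step between tables came from a joint fit. DESeq2 (1.42.0, the tool of the study) and limma voom (3.58.1), other scalings and filters, the contrast groups alone, the replicate number as a block and the omission of each rat were the alternatives. The code was tested on simulated data. The comparisons with 0 mkd, the counts of list members under the alternatives, and CPM without TMM scaling, were added after the data were seen.

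The 34 gene lists and the groups compared were chosen with earlier results of these data known. Genes were named as called genes without overlap between groups (none qualified), the 4 members of a list with the smallest p, defining members of a list, genes the study names, and the top genes of the difference contrasts. Further genes are the 10 at relaxed criteria and some called by DESeq2. Each library is a separate rat. Replicate numbers did not pair the rats. Results of a few single genes are not reported here.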

Additional observations from a re-analysis of the deposited data

Results flagged for a closer look

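Of 262 sets of 5 rats examined (a gene or a list mean at 1 dose, on the log2 CPM scale), 19 (7.25%) held a rat whose gap to its nearest neighbour exceeded 0.71 of the range of the set, where chance gives about 1 in 20. Of the 19, 10 were those of rat 5 at 1500 mkd. This rat was lowest in all of these but Sqle, by a log2 gap of 1.626 in Mki67, 1.726 in Cdk1, 1.967 in Top2a, 1.437 in Kif18b, 1.612 in Dlgap5, 0.823 in Rrm1, 1.96 in Rrm2, 1.302 in the mitosis and spindle mean and 0.588 in the mean of G1 entry and its inhibitors. It was highest in Sqle, by 1.955.

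In the other rats at 1500 mkd, rat 1 was highest in Phgdh by 0.721, and rat 2 was lowest in Hpd by 0.804 and in Alb by 1.141. At 1000 mkd rat 3 was highest in Mcm2 by 0.672 and in Akr1b8 by 1.719, rat 4 was highest in Anxa2 by 0.528 and in the mean of conjugation enzymes by 0.239, rat 2 was lowest in Hebp2 by 1.048, and rat 2 was highest in Tnfsf13 by 3.917.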

How the results depend on the processing

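The number of genes called in the step was 0 with edgeR, and also 0 with the replicate block, which changed no other call. It was 35 with DESeq2, 5 with limma voom and 10 at the relaxed criteria, and 0 to 93 when a rat was left out, the highest without rat 5 at 1500 mkd. The difference between dose steps gave 5 genes with DESeq2, the male step 1 with DESeq2, and the difference between sexes 0 to 10 when a rat was left out (10 without female rat 5 and 2 without male rat 3 at 1500 mkd), while the day 8 step and its difference from day 29 gave 0 throughout. The cause of these changes was not tested. The call count at 1000 against 0 mkd ranged from 152 to 461 over the alternatives (461 with DESeq2), and that at 1500 mkd from 1475 to 1681. Of 96 named genes under 1628 alternatives the direction turned in 1 case, Tnfsf13, whose log2 fold change ranged from -2.043 to 0.238 when a rat was left out, the latter without rat 2 at 1000 mkd. The medians of 34 lists moved by less than 1 SD of the list mean between rats in all 374 alternatives. Leaving out 1 of 5 rats can hardly exceed that limit, so it says little about stability. The medians of some lists changed sign when a rat was left out, among them chemokines and cytokines (-0.05 to 0.21) and conjugation enzymes (-0.18 to 0.05). Rats with the same number in both groups had correlations of their deviations of -0.341 to 0.119, and so were not treated as pairs. The male mitosis and spindle count of 62 was 7 with the block.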
